A study of Rattus norvegicus with 23 samples.

Results

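The early fallers are 119 genes whose transcripts were at least halved on average by 12 h of mixed differentiation in rat hippocampal neural stem cells and were still at least that low at 24 h and at 36 h. They were chosen by their levels: CPM values (counts divided by the library's column total and scaled to 1000000) were averaged per substrate and time, the soft and stiff means were averaged, and log2(average + 1) had to be lower than at 0 h by 1 or more at each of the 3 later times. The rule took 119 of 32883 genes listed, or 0.65% of the 18319 genes with at least 1 count. Its offset of 1 CPM shrinks the changes of low genes, so a gene near 1 CPM at 0 h could hardly meet it.

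Wild-type neural stem cells from the hippocampus of adult female rats were cultured on 1 of 2 substrates, soft or stiff, and every group, 0 h included, is labelled with the same mixed differentiation medium (DMEM-F12 with N2, 1 uM retinoic acid and 1% FBS). Libraries were taken at 0, 12, 24 and 36 h, with 3 for each substrate and time except soft at 12 h, which has 2. The labels give neither the stiffness of the substrates nor the time spent on them before 0 h, and do not say that the replicates are separate cultures, so spreads and p-values may be technical. In such mixed cultures a lower level per gene can mean fewer cells of a type or less RNA per cell, and these cannot be told apart. Total counts ran from 2462360 to 6811157 per library. The files give Ensembl identifiers without gene names, and 0 of the 119 matched the gene and sequence tables used here, so no function, sequence or cell type marker could be given and the labelled cell type was not checked. Only 4 identifiers are printed, and other members are described by their rank of abundance.

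Neural stem cells of the adult hippocampus divide slowly and produce mainly neurons and astrocytes. In culture they are kept dividing by growth factors, and withdrawing these while adding retinoic acid or serum lets them leave the stem cell state along several lineages at once. How fast a transcript is lost depends both on its synthesis and on the half-life of its RNA. The stiffness of the substrate is known to bias lineage choice in such cells, with soft substrates favouring neurons and stiff ones favouring glia.

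The early fallers were expressed at 0 h across a wide range. Their level at 0 h, as the mean of soft and stiff, ran from 1.68 to 1803 CPM with a median of 31.2 CPM, against a median of 10.4 CPM over the 16248 genes with any count at 0 h. The quartiles were 9.37 and 92.7 CPM. The lowest count behind any member at 0 h was 57 over the 6 libraries, and all 119 passed the filter on low counts used for testing. The most abundant member held 13.3% of the members' summed CPM at 0 h and the 12 most abundant held 62.7%. Between replicates the members' median biological coefficient of variation in edgeR was 0.16, against 0.113 over all 11857 tested genes. The 2 medians were not matched for abundance.

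Summed over the 119 genes, a sum that the most abundant members dominate, the loss was fast and then nearly flat. At 0 h the members made up 1.37%, 1.37% and 1.22% of all counts on soft and 1.29%, 1.51% and 1.35% on stiff. At 12 h the shares were 0.429% and 0.391% on soft and 0.47%, 0.457% and 0.456% on stiff. All 0 h libraries thus lay far above all 12 h libraries, with group means 3.22 times lower on soft and 3.01 times lower on stiff, which the rule itself fixed in direction. At 24 h the libraries held 0.441% to 0.471% on soft and 0.431% to 0.469% on stiff, and at 36 h 0.446% to 0.481% on soft and 0.408% to 0.425% on stiff. Between 12 h and 36 h the mean share moved upward on soft, from 0.41% ± 0.0268 (SD, n = 2) to 0.467% ± 0.0187 (SD, n = 3), and downward on stiff, from 0.461% ± 0.00756 to 0.417% ± 0.00815 (SD, n = 3 each). On soft the change lay in the 5 genes described below whose loss to 12 h was smaller on stiff, which went from 0.0249% to 0.0809% of counts, while the other 114 were at 0.385% and 0.386%. On stiff those 5 went from 0.087% to 0.0609% and the other 114 from 0.374% to 0.356%. The levels at 12 h helped to choose the 5, so their later moves are a description. The substrates' shares did not overlap at 12 h, where stiff was higher, nor at 36 h, where stiff was lower, and they overlapped at 0 h and 24 h. Without the 12 most abundant members, the course after 12 h was less flat. On soft the share was then 0.171% and 0.177% at 12 h, 0.146% to 0.167% at 24 h and 0.166% to 0.182% at 36 h. On stiff it was 0.194% to 0.199%, 0.141% to 0.162% and 0.139% to 0.15% at the same times.

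**Figure D1:**
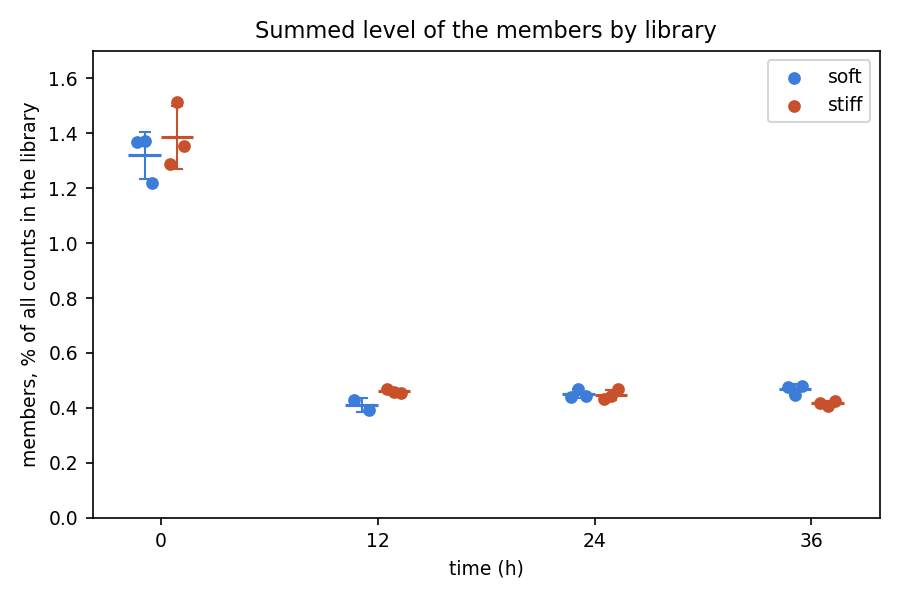
Summed level of the 119 early fallers as a percentage of all counts in each library, against time in hours. Points are libraries, horizontal lines are group means and error bars are SD (n = 3, and 2 for soft at 12 h); all 0 h libraries lie between 1.22% and 1.51% and all later ones between 0.391% and 0.481%.

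Gene by gene, the median change from 0 h was -1.37 at 12 h, -1.71 at 24 h and -1.64 at 36 h on the log2(CPM + 1) scale, or 2.58, 3.27 and 3.11 times lower. These values chose the members and are given as a description. The largest changes were -2.39 at 12 h, -2.81 at 24 h and -3.06 at 36 h. A change of -2 or more in size was reached by 12 genes at 12 h, 23 at 24 h and 28 at 36 h, and by 1 gene at all 3 times. In the median gene 86.2% of the change seen at 36 h was present at 12 h, 71 genes had at least 80% of it by then, and 4 had under 50%.

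In 104 of the 119 genes every 0 h library lay above every later library, compared with 5.76% of all tested genes; the rule used these levels, so nothing is read from that count. The other 15 genes overlapped and were mostly low, with a median of 5.68 CPM at 0 h. The clearest case of a member resting on 1 library had 49.1 CPM in stiff 0 h replicate 2 and 2.74 to 5.62 CPM in the other five 0 h libraries, 8.73 times less than the single high value at the nearest. Without that library it was no member. It was the only member in which 1 library at 0 h stood at 2 or more times the next.

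**Figure D2:**
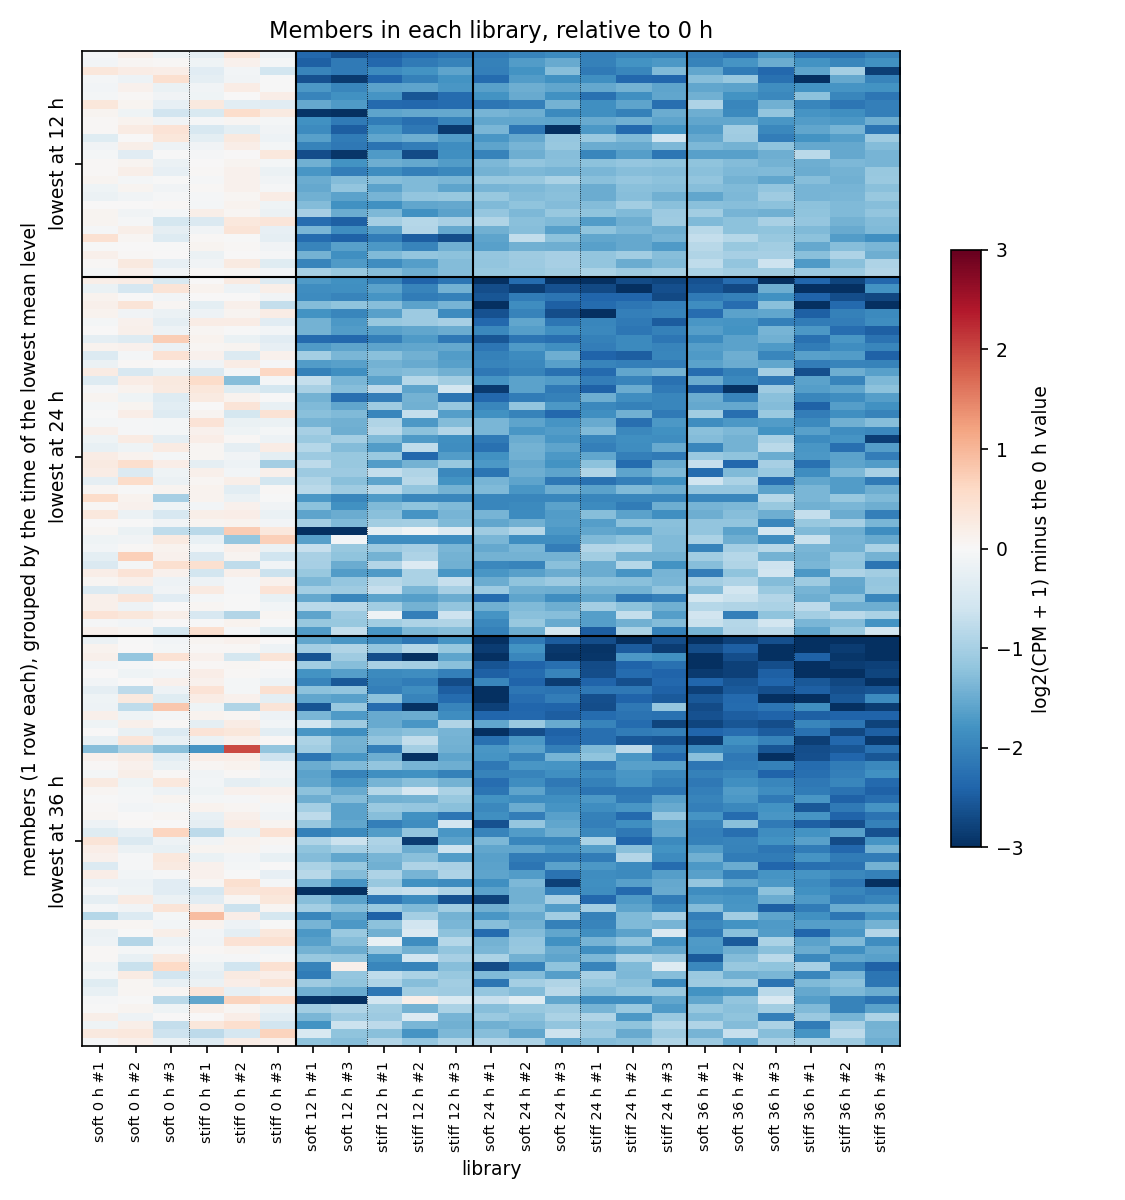
Each row is 1 of the 119 early fallers and each column 1 of the 23 libraries, with colour giving log2(CPM + 1) minus the gene's 0 h value (mean of both substrates), limited to -3 and 3. Rows are grouped by the time of the lowest mean level (27 at 12 h, 43 at 24 h, 49 at 36 h); blue fills nearly all later columns, and 1 row is red in stiff 0 h replicate 2 alone.

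The time of the lowest level split the genes into 3 shapes. For 27 genes it was 12 h, for 43 it was 24 h and for 49 it was 36 h. The shapes lowest at 24 h and 36 h had median levels at 0 h of 23.5 and 22.6 CPM. The 27 genes lowest at 12 h had a higher median, 111 CPM, and included 8 of the 12 most abundant members. A level of 7.33 CPM at 0 h also occurred among these 27. Their median change was -1.74 at 12 h and then -1.39 at 24 h and -1.35 at 36 h on the same scale. That they stood higher after 12 h follows from the grouping and is a description. The 43 genes lowest at 24 h had medians of -1.31, -1.77 and -1.495 at 12, 24 and 36 h. The 49 genes lowest at 36 h had medians of -1.33, -1.77 and -1.94, and 45 of all members were lower at each later time than at the one before.

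From 12 h to 24 h, 88 genes went lower and 31 higher, with a median step of -0.27 on the log2(CPM + 1) scale. A step of 0.5 or more was taken downward by 29 genes and upward by 6. From 24 h to 36 h the members were evenly divided, 59 lower and 60 higher, and steps of 0.5 or more were rarer, with 5 downward and 2 upward. Since low values at 12 h and 24 h helped to choose the genes, these steps were not tested.

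**Figure D3:**
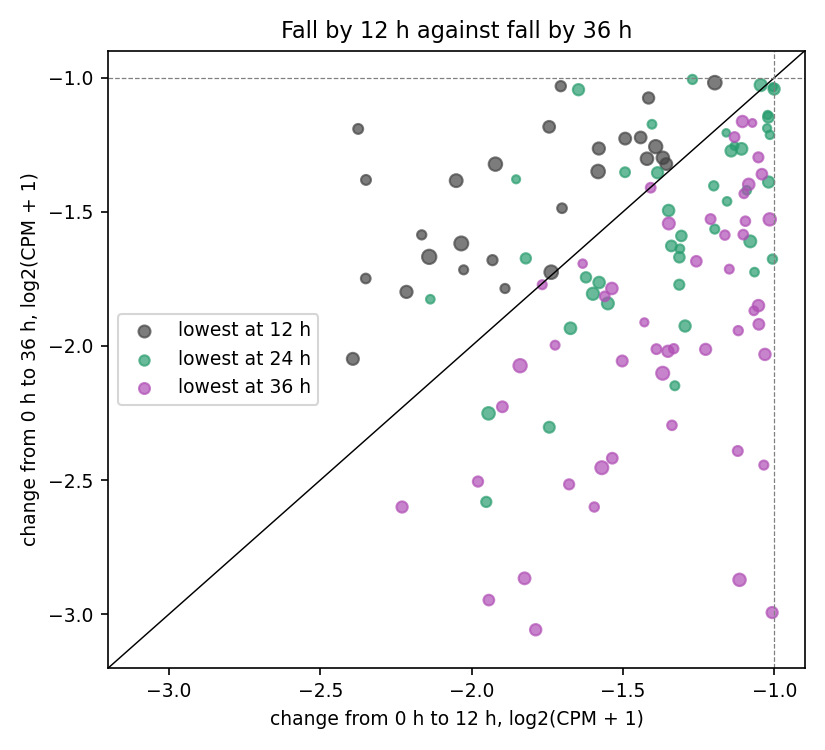
Change from 0 h to 36 h against change from 0 h to 12 h for the 119 early fallers, both as differences of log2(CPM + 1), with larger points for genes more abundant at 0 h and colour for the time of the lowest level. Dashed lines mark the limit of -1 and the diagonal marks equal changes; 36 genes lie above the diagonal, lower at 12 h than at 36 h.

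The most abundant member was at 1899, 1636 and 1202 CPM on soft and 1306, 2614 and 2160 CPM on stiff at 0 h. At 12 h it was at 232 and 175 CPM on soft and 602, 616 and 619 CPM on stiff. It was therefore low in every 12 h library, and lower in both soft libraries than in any stiff one. At 24 h the values were 684, 649 and 480 CPM on soft and 500, 443 and 642 CPM on stiff, and at 36 h 657, 479 and 800 CPM on soft and 526, 502 and 436 CPM on stiff. The soft libraries thus stood higher at 24 h and 36 h than at 12 h, and every stiff library at 36 h lay below every stiff library at 12 h.

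The second most abundant member had close means on both substrates at every time. It was at 1211 ± 94 CPM on soft and 1186 ± 48.6 CPM on stiff at 0 h (SD, n = 3 each), and at 308 ± 46.2 CPM on soft (SD, n = 2) and 276 ± 24.3 CPM on stiff (SD, n = 3) at 12 h. It then stood at 404 ± 4.68 and 420 ± 21.3 CPM at 24 h and at 390 ± 27.7 and 389 ± 36.2 CPM at 36 h. The substrates' libraries overlapped at every time.

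The member with the largest change by 36 h, ENSRNOG00000006116, went down in every interval. It was at 58.3, 65.0 and 62.0 CPM on soft and 69.8, 71.7 and 66.6 CPM on stiff at 0 h. At 12 h it had 21.7 and 18.9 CPM on soft and 16.4, 13.8 and 18.4 CPM on stiff. All 12 h libraries lay far below all 0 h libraries. At 24 h it had 3.79, 14.2 and 10.8 CPM on soft and 9.59, 6.85 and 9.49 CPM on stiff, and at 36 h 6.82, 8.49 and 9.71 CPM on soft and 6.11, 4.04 and 6.79 CPM on stiff. The substrates did not overlap at 0 h, where stiff was higher, nor at 12 h and 36 h, where stiff was lower, and none of these differences passed edgeR's test (adjusted p = 1, 0.471 and 0.743). Its overall change was -3.06 on the log2(CPM + 1) scale.

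ENSRNOG00000027787, with the next largest change, only just met the limit at 12 h, and the larger part of its log2 change came afterwards. Its 0 h values were 60.0, 56.7 and 54.3 CPM on soft and 57.8, 57.7 and 50.2 CPM on stiff, and its 12 h values 27.1 and 29.5 CPM on soft and 24.4, 30.5 and 24.8 CPM on stiff. All 12 h libraries lay close together and below all 0 h libraries. At 24 h it had 6.99, 15.6 and 6.66 CPM on soft and 6.40, 9.13 and 6.89 CPM on stiff. At 36 h it had 8.01, 9.44 and 5.05 CPM on soft and 2.80, 6.92 and 4.81 CPM on stiff. Its changes were -1.01 at 12 h, -2.57 at 24 h and -2.99 at 36 h, and its substrates overlapped at every later time.

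The limit itself cuts through a continuous range. Counting each gene by the smallest of its 3 changes, 29 members lay within 0.1 inside the limit and 44 genes within 0.1 outside it. The 3 members nearest the limit had a smallest change of -1.0067, -1.0047 and -1.0013, and the 3 nearest genes outside it -0.9975, -0.9962 and -0.9936. By the rule on a single substrate, 95 of the 119 qualified on soft, 100 on stiff, 81 on both and 5 on neither. The time that failed most often was 12 h, with 15 genes short of the limit on soft and 16 on stiff. With each library left out in turn, 84 of the 119 met the rule every time, and 107 to 119 were kept at once; leaving out any 24 h library lost none.

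The difference between substrates was not used by the rule, and it was tested at each time with edgeR's quasi-likelihood test over all 11857 genes, a gene being called at a Benjamini-Hochberg adjusted p under 0.05. At 0 h edgeR called 0 of the 119 genes, as it called 0% of all tested genes; 5 were under 0.05 by unadjusted p, against 3.63% of tested genes, and DESeq2 likewise called 0. The median stiff minus soft log2 fold change was 0.01 for the members and 0.01 for all tested genes. Every stiff library lay above every soft one in 6 members and below in 5, against 3.89% and 4.17% of tested genes.

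At 12 h 7 of the 119 genes were called (5.88%), against 6.60% of all tested genes, so the members were called about as often as other genes. Of the 7, 6 were higher on stiff, against 5.36% of tested genes, and 1 was lower, against 1.24%. The members' median log2 fold change was 0.03, that of all tested genes -0.03, and 65 members were higher and 54 lower on stiff. Every stiff library lay above every soft one in 21 members and below in 13, against 19.7% and 15.1% of tested genes. The median changed sign when single 12 h libraries were left out, reaching 0.11 without soft 12 h replicate 1 and -0.06 without soft 12 h replicate 3.

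The 7 genes called at 12 h ranged from small to large differences, with log2 fold changes from -0.32 to 3.24. ENSRNOG00000007607 was at 81.8, 76.4 and 66.3 CPM on soft and 59.0, 109 and 112 CPM on stiff at 0 h. At 12 h it had 8.47 and 8.74 CPM on soft and 48.9, 51.6 and 43.6 CPM on stiff. The 12 h substrates were far apart, with the soft libraries below those of every other group. At 24 h it had 27.2, 30.1 and 19.5 CPM on soft and 22.2, 15.8 and 28.9 CPM on stiff, and at 36 h 22.2, 21.9 and 35.4 CPM on soft and 23.2, 20.8 and 18.7 CPM on stiff. Its log2 fold change at 12 h was 2.44 (SE 0.27; Benjamini-Hochberg adjusted p = 1.99e-07 in edgeR).

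ENSRNOG00000008309 followed the same course. Its 12 h values were 10.3 and 7.36 CPM on soft and 79.1, 89.3 and 73.8 CPM on stiff, a log2 fold change of 3.16 (SE 0.37; Benjamini-Hochberg adjusted p = 5.22e-07 in edgeR). At 0 h it was at 102, 85.5 and 56.9 CPM on soft and 55.4, 165 and 122 CPM on stiff. Stiff libraries at 12 h therefore lay within the range of 0 h. At 24 h it had 46.5, 53.4 and 28.9 CPM on soft and 32.3, 31.0 and 40.0 CPM on stiff, and at 36 h 42.4, 31.5 and 66.8 CPM on soft and 38.7, 34.8 and 26.3 CPM on stiff. The substrates overlapped at both later times.

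**Figure D4:**
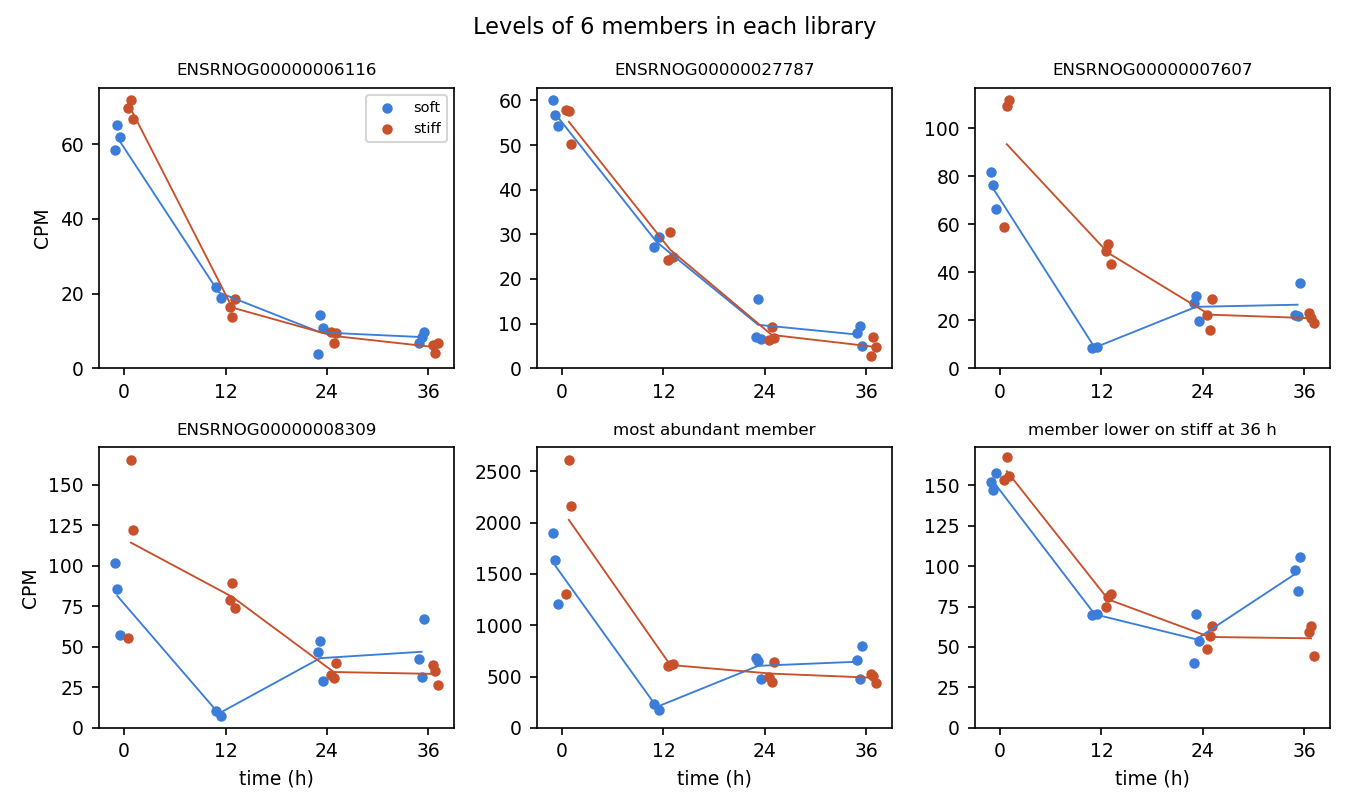
Level in CPM against time in hours for 6 early fallers, with 1 point per library and lines through group means. ENSRNOG00000006116 and ENSRNOG00000027787 have lower means at each later time on both substrates, while ENSRNOG00000007607, ENSRNOG00000008309 and the most abundant member dip on soft at 12 h, to 8.61, 8.84 and 204 CPM on average.

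The other 5 called genes included the most abundant member, 1.54 higher on stiff on the log2 scale (SE 0.22; Benjamini-Hochberg adjusted p = 1.11e-05 in edgeR). The members ranked 32nd and 25th by abundance were higher by 3.24 (SE 0.50) and 1.42 (SE 0.22), and the 37th by 0.57 (SE 0.17). The third most abundant was the one lower on stiff, by a log2 fold change of -0.32 (SE 0.0949), at 387 ± 29.1 CPM on soft (SD, n = 2) and 318 ± 23.1 CPM on stiff (SD, n = 3). Of these 7 calls, 5 passed under each of the 11 alternatives tried. By edgeR's test, that of the 37th was lost without soft 12 h replicate 3 (adjusted p = 0.371), without stiff 12 h replicate 2 (0.169) and with all libraries thinned to the smallest total (0.103). That of the third was lost without soft 12 h replicate 1 (edgeR adjusted p = 0.397), without stiff 12 h replicate 1 (0.0544), 2 (0.23) or 3 (0.0635), and with unscaled totals (0.0541). Depth differed at 12 h, with totals of 5428086 and 6519349 on soft and 2462360 to 4803755 on stiff. With every library thinned to 2462360 counts, 6 of the 7 were still called.

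Whether the change from 0 h to 12 h differed between substrates was tested as an interaction. By this test 6 members were called (5.04%), against 1.87% of all tested genes. In 5 of them the level went down less on stiff, against 1.81% of tested genes, and in 1 it went down more, against 0.059%. Since the mean of both substrates chose the members, a deep loss on soft could favour such calls. Nothing is therefore read from the larger share. The 5 are ENSRNOG00000007607, ENSRNOG00000008309, the most abundant member and those ranked 25th and 32nd, all of them also called at 12 h, which uses the same 12 h libraries. On soft their means were 4.86 to 9.72 times lower at 12 h than at 0 h, and on stiff 1.37 to 3.31 times lower. ENSRNOG00000007607, ENSRNOG00000008309 and the member ranked 32nd were 1.94, 1.41 and 1.37 times lower on stiff, short of the limit there. After 12 h the means of the 5 moved in opposite directions. On soft they were 2.39 to 6.59 times higher at 24 h than at 12 h, while on stiff they were 1.16 to 2.93 times lower. Low soft and high stiff values at 12 h helped to choose the 5, so these moves are a description. At 24 h edgeR called 0 members between substrates.

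The 1 gene that went down more on stiff, ranked 87th by abundance, was at 7.53 ± 1.83 and 12.6 ± 2.67 CPM on soft and stiff at 0 h (SD, n = 3 each) and at 3.76 ± 0.106 CPM (SD, n = 2) and 1.57 ± 0.519 CPM (SD, n = 3) at 12 h. Its call was lost under 8 of 17 alternatives. Leaving out soft 12 h replicate 3 reduced the 6 calls to 2, a fit in which soft at 12 h has 1 library whose spread is taken from the other groups. Those 2 were ENSRNOG00000007607 and ENSRNOG00000008309.

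The lowest and the highest library of each group make 16 positions over the 8 groups. In 6 of these the same library stood there in all 5 genes, and in the other 10 the genes were split. In 5 of 5 the lowest stiff library at 0 h was replicate 1, as in 37 of all 119 members, and the lowest soft library at 0 h was replicate 3, as in 57. In 5 of 5 soft replicate 3 was the lowest at 24 h (35 of 119) and the highest at 36 h (53 of 119). On stiff, replicate 3 was the highest at 24 h (43 of 119) and replicate 1 the highest at 36 h (40 of 119) in 5 of 5. At 12 h they were split, with soft replicate 3 the lowest in 4 of 5 (81 of 119) and stiff replicate 2 the highest in 4 of 5 (43 of 119). Together these genes held 0.0249% ± 0.00481 of counts on soft (SD, n = 2) and 0.087% ± 0.00396 on stiff (SD, n = 3) at 12 h. Over the other 114 genes the summed shares at 12 h overlapped, at 0.37% to 0.401% on soft and 0.365% to 0.385% on stiff.

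At 24 h no member passed the test between substrates. Of the 119 members edgeR called 0, as it called 0% of all tested genes, while 5 members were under 0.05 by unadjusted p, against 3.02% of tested genes, and DESeq2 called 0. The median log2 fold change was -0.01, with 58 genes higher and 60 lower on stiff. Every stiff library lay above every soft one in 6 members and below in 6, against 3.80% and 4.17% of tested genes. For the change from 0 h to 24 h, edgeR and DESeq2 each called 0 members against 0% of tested genes, with 9 at an unadjusted p under 0.05 in edgeR, against 4.50% of tested genes. Of the 9, 8 went down further on stiff, against 2.24% of tested genes, and 1 went down less.

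At 36 h the members lay lower on stiff as a group, though only 1 passed the test. The median log2 fold change was -0.21 (quartiles -0.50 and 0.01), compared with -0.01 over all tested genes (quartiles -0.14 and 0.13). Of the 119 genes 85 were lower on stiff and 34 higher; 28.6% were higher, against 48.3% of tested genes. An unadjusted p under 0.05 was reached by 19 members, all lower on stiff, against 7.04% of tested genes in either direction and 3.82% lower on stiff. Every stiff library lay below every soft one in 17 members (14.3%) and above in 1, against 7.38% and 5.31% of tested genes. The median stayed between -0.26 and -0.12 over the 12 alternatives. It was smallest in size, at -0.12, with every library thinned to 2462360 counts, over the 114 members then tested. Leaving out single libraries gave -0.26 to -0.15. Totals at 36 h were 2573665 to 6358462 on soft and 3536182 to 5203157 on stiff. By shape the medians were -0.09 for genes lowest at 12 h (20 of 27 lower), -0.32 for those lowest at 24 h (32 of 43) and -0.24 for those lowest at 36 h (33 of 49). The shapes were drawn with the same 36 h levels, so these medians are a description. No test of the 119 genes as a set was made.

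The summed level gives the same order with and without the 5 genes that dipped on soft. Over the other 114 genes the libraries at 36 h held 0.38% to 0.395% of counts on soft and 0.346% to 0.37% on stiff. By shape, again only as a description, the 43 genes lowest at 24 h held 0.0671% to 0.0726% on soft and 0.0482% to 0.0543% on stiff, with a clear gap. The 49 genes lowest at 36 h held 0.0734% to 0.0825% and 0.0691% to 0.0733%, with hardly any gap, and the 27 genes lowest at 12 h overlapped, at 0.298% to 0.332% and 0.286% to 0.304%.

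**Figure D5:**
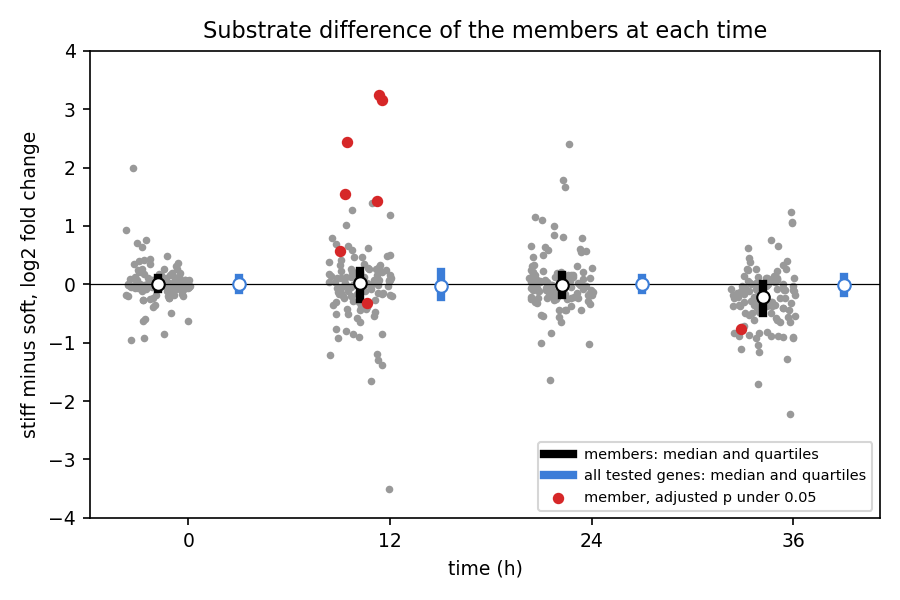
Stiff minus soft log2 fold change of the 119 early fallers at each time in hours (grey points; red where the edgeR adjusted p is under 0.05), with their median and quartiles in black and those of all 11857 tested genes in blue. The members' median lies at 0.01, 0.03, -0.01 and -0.21 at 0, 12, 24 and 36 h; 1 member at 12 h lies more than 3.5 below 0 and is drawn at that limit.

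The 1 gene called at 36 h was ranked 19th by abundance and was lower on stiff, against 0.0506% of tested genes called lower; 0 members were called higher, against 0.0169%, and 0.0675% of tested genes were called in all. At 36 h it was at 97.9, 84.8 and 106 CPM on soft and 59.3, 62.7 and 44.1 CPM on stiff, with no overlap, a log2 fold change of -0.76 (SE 0.136; Benjamini-Hochberg adjusted p = 0.00897 in edgeR). At 0 h it had 152 ± 5.26 CPM on soft and 159 ± 7.53 CPM on stiff, and at 24 h 54.8 ± 15 and 56.2 ± 6.88 CPM (SD, n = 3 each). Soft libraries thus stood higher at 36 h than at 24 h, and stiff libraries did not. By edgeR's test the call was lost without soft 36 h replicate 1 (adjusted p = 0.0783), soft 36 h replicate 3 (0.0845) or stiff 36 h replicate 3 (0.242). DESeq2 called 3 members, all lower on stiff. So did edgeR without stiff 36 h replicate 1, and edgeR with the replicate number as a block.

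For the change from 0 h to 36 h no member passed the test of a difference between substrates. By edgeR's interaction test 0 of 119 were called, against 0.00843% of tested genes, and DESeq2 called 0. Counts were simulated with changes in 200 genes drawn at random from all 11857 tested genes. On these, edgeR's interaction test recovered 46.3% of 2-fold and 20.9% of 1.5-fold changes at 36 h, and 50.7% and 20.9% at 24 h. Counts of 0 therefore do not show equal changes on both substrates. Recovery among the members alone was not measured. Of the genes called on simulated counts, 6.48% were false in the 36 h interaction test and 8.97% in that of stiff minus soft at 36 h. An unadjusted p under 0.05 was reached by 19 members, all with the larger loss on stiff, against 5.88% of tested genes in either direction and 3.19% in that one. The median difference was -0.23 over the members and -0.01 over all tested genes, and 89 of the 119 went down further on stiff. With every library thinned to 2462360 counts, the members' median was -0.16. This comparison shares the 36 h libraries with the one above and is not a second line of evidence.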

How the data were processed

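Per the labels' protocols, RNA from cell pellets was made into QuantSeq FWD libraries, which read tags near the 3' end. FastQC, HISAT2 2.1.0 and HTSeq with build rn6 are named in the submitters' processing notes; annotation, strand setting and duplicate handling are, in the sources used here, not given, so overlapping genes may share reads. The authors deposited raw whole-number counts per Ensembl gene, with 1 column per library, for 23 libraries. CPM used column totals. Members and lists were chosen with earlier results of these data known. Genes were to be named by abundance, size of change, calls and 19 pathway and 8 marker lists; without gene names, the rule left the 2 largest changes at 36 h, and the 2 identifiers with the smallest p among those higher on stiff at 12 h were added after their values were seen. Tests used edgeR 4.0.16 (R 4.3.3; quasi-likelihood, TMM, filterByExpr with a minimum count of 10 and total of 15, 1 fit of 8 group means), checked on simulated counts. Alternatives were RLE factors, unscaled totals, no filter, DESeq2 1.42.0, a replicate block, single libraries left out and, added later, thinning; for the rule, TMM totals, each substrate alone, each replicate number left out and an offset of 0.1 CPM. Each pair of replicates differed by more than sampling noise (chi-square per degree of freedom 2.42 to 9.11 over genes with at least 20 counts). Figures used matplotlib 3.10.9.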

Additional observations from a re-analysis of the deposited data

Results flagged for a closer look

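The change from 0 h to 12 h differed between substrates in 6 of the 119 genes by a test of the difference itself (edgeR quasi-likelihood interaction with Benjamini-Hochberg adjustment). The stiff minus soft difference in log2 change was 2.12 (SE 0.328, edgeR adjusted p = 0.000114) for ENSRNOG00000007607 and 2.68 (SE 0.449, edgeR adjusted p = 0.000364) for ENSRNOG00000008309. It was 1.18 for the most abundant member (edgeR adjusted p = 0.0167), 1.15 for the one ranked 25th (0.0161) and 2.81 for the one ranked 32nd (0.00634). In the opposite direction it was -2.05 for the one ranked 87th (edgeR adjusted p = 0.0317). The calls for ENSRNOG00000007607 and ENSRNOG00000008309 passed under each of 17 alternatives, and those of the other 4 genes were lost under 1 to 8 of them. Groups of 2 or 3 libraries were too small to be searched for single outlying samples.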

How the results depend on the processing

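Over 8 results (7 counts of called members and the number of members), 94 of 107 alternatives gave a count within 1.5 times the one reported, and none of the 14 called values changed sign. Many of the 94 are counts of 0 matched by 0, which show no stability of a call. For the count at 36 h, 5 of 12 alternatives were within 1.5 times. With no filter on low counts, the members called were 2 at 0 h, 2 at 24 h, 5 at 36 h (all lower on stiff), 4 for the change from 0 h to 24 h and 5 for that to 36 h. DESeq2 called 3 at 36 h. With 1 library left out, the number called ran from 0 to 3 at 36 h, from 2 to 6 for the change to 12 h and from 5 to 8 at 12 h. With 0.1 CPM added in place of 1 the rule took 289 genes, among them all 119; of the 170 added genes, 154 were under 5 CPM at 0 h. TMM-scaled totals gave 119 genes, 114 of them shared. The rule took 131, 117 and 121 genes without replicate number 1, 2 or 3, sharing 107, 100 and 103 with the members, and 136 on soft and 137 on stiff alone. As a replicate block the numbers raised the count at 36 h from 1 to 3 and left those at 12 h at 7 and 6. Same-numbered soft and stiff libraries correlated in their deviations from group means at 0.0261 to 0.269, over 0.1 in 7 of 11 pairs. Different-numbered ones correlated at -0.261 to 0.123, and not every library correlated best with its own number. The labels do not say what a shared number stands for, so the main tests did not pair the libraries. Low counts limit members near 1 CPM after the fall, where 1 library can decide a value.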
